A study of Phyllostachys violascens with 16 samples.

Results

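Shoots of Lei bamboo (Phyllostachys violascens) that had been stored cold for 20 days were compared with shoots stored for 2 days, across all genes, so that a late state of storage is set against an early one without the harvest libraries. The members are the 8 libraries whose labels give these 2 times, out of 16 in the series: 4 at 20d and 4 at 2d. Both groups are the same plant under the same treatment, young spring shoots of 30 to 40 cm kept at 4 °C in polyethylene bags at 60 to 70% humidity, and they differ by their time in storage alone, as far as the labels say. Each library is a pool of middle segments, about 10 cm long, from 6 shoots. Every segment holds many cell types at once, so fewer cells of a type and less RNA per cell cannot be told apart. There were no shoots at another temperature, and time in the cold, time since harvest and time in the bag cannot be told apart. The libraries of 0d (sampled at the start) and 6d, also 4 each, were used only to place the levels found.

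A harvested bamboo shoot is a fast-growing stem cut off from its supply of water, sugar and hormones. Its cells keep respiring, and in storage the shoot is known to toughen as walls gain lignin, a polymer of phenolic alcohols that peroxidases and laccases oxidise and couple. Plant cells short of carbon recycle their own contents through proteases, nucleases and autophagy, a pathway that carries cytoplasm to the vacuole for breakdown. Making ribosomes is among the largest costs of a growing cell, and genes for ribosomal proteins are usually read together.

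The total of deposited counts per library was 51.7 to 63.8 M (mega) at 20d and 51.7 to 62.4 M at 2d. Replicates lay close together: among genes that averaged 10 FPKM or more, the median coefficient of variation was 3.87% at 20d and 4.36% at 2d. In pairs of replicates the variance was 1.48 to 1.80 times that of counting alone, for genes with 50 to 1000 fragments over the pair. This ratio takes 4 counts as 1 fragment, a number inferred from the counts and not given, and its size depends on it. No pair stood out from the others as one library deposited under 2 names. The p-values below measure the small spread between pools of the same time. A library held 22758 ± 26 genes at an FPKM of at least 1 at 20d and 23046 ± 22.8 at 2d, and the 10 genes with the highest counts took 2.43% of the counts at 20d and 4.00% at 2d (exact permutation p = 0.0286 for each measure, the smallest that 4 against 4 allows, and adjusted p = 0.0286 over 3 measures, two-sided). Marker genes of meristems summed to 444 to 454 FPKM at 20d and 528 to 529 FPKM at 2d, and those of roots to 0 FPKM at 20d and 0 to 0.381 FPKM at 2d, with 4 of 5 root markers at 0 in all 8 libraries. Markers of green tissue summed to 1.74 to 2.61 FPKM at 20d and 14.3 to 15.4 FPKM at 2d, those of epidermis and cuticle to 94.3 to 100 FPKM at 20d and 37 to 39.5 FPKM at 2d, and those of phloem to 22.5 to 25.6 FPKM at 20d and 7.62 to 8.83 FPKM at 2d. Few of these genes averaged 1 FPKM or more across the 8 libraries: 1 of 17 for green tissue, 12 of 79 for epidermis and cuticle and 2 of 6 for phloem. Such sums can rest on very few genes. The part of the markers in the changes below was not tested.

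The 2 states differed in a large share of the transcriptome. The tested genes were the 23611 whose FPKM averaged 1 or more across these 8 libraries, and of them 3922 were called higher at 20d (16.6%) and 4495 lower (19.0%), 35.6% in all. The counts of every list below are to be read beside these shares. A gene was called at an edgeR adjusted p below 0.05 with a log2 change of at least 1 in size, which is a doubling or a fall to 50% or less. With adjusted p alone 19518 genes (82.7%) passed, so the limit on size decides most calls. Values below are means ± SD over the 4 libraries of a time (n = 4) where not given per library, and log2 changes, SE and adjusted p are from edgeR. Large changes were not rare: 1495 genes rose and 1756 fell with a log2 change of at least 2 in size, and 223 rose and 185 fell with one of at least 5. The median log2 change over all tested genes was -0.004. Genes low at one time passed the filter through the other time and so had to differ: 1129 of the 3922 that rose averaged below 1 FPKM at 2d, and 1283 of the 4495 that fell averaged below 1 FPKM at 20d. Their number stands beside many of the lists below where they made up much of a count. The libraries of the 2 times did not overlap for 8355 of the 8417 called genes, beside 78.7% of all tested genes.

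**Figure D1:**
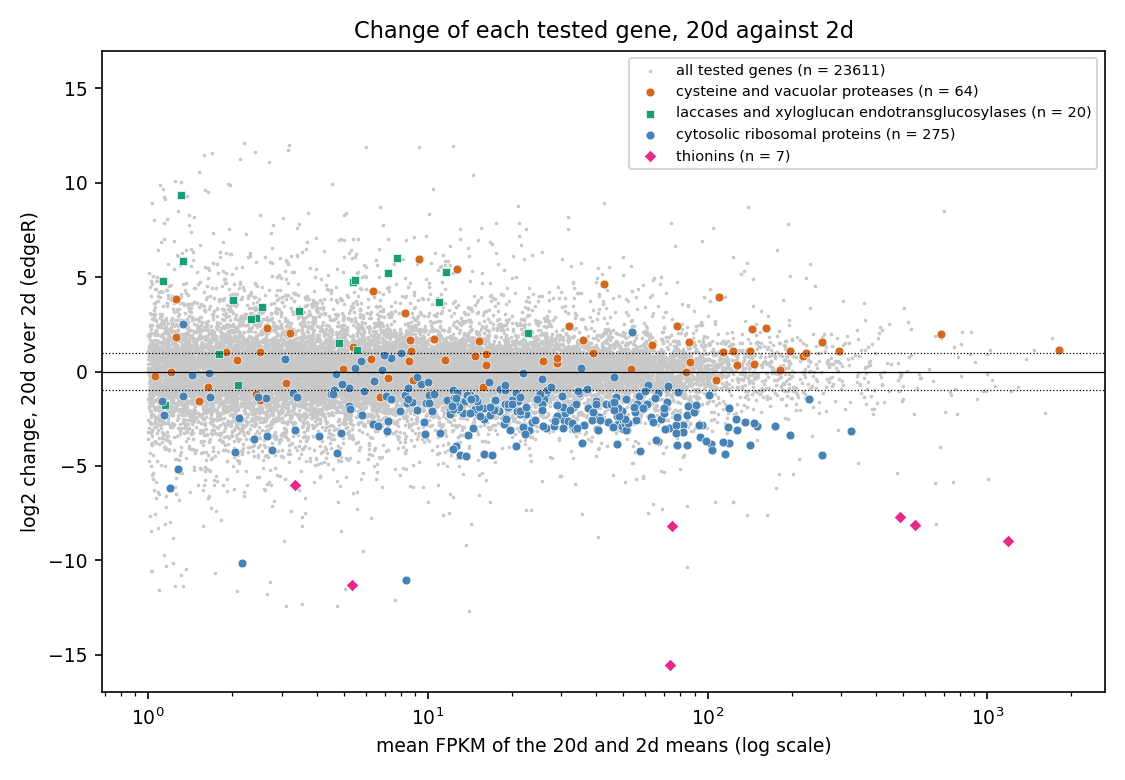
Log2 change from edgeR (20d over 2d, vertical axis) against the mean of the 20d and 2d FPKM (horizontal log axis) for the 23611 tested genes, in grey, with 4 groups of genes in colour and dotted lines at a log2 change of 1 and -1. Ribosomal protein genes form a band below the lower line across most levels, the 7 thionins lie at -6.0 or below, and proteases, laccases and xyloglucan endotransglucosylases lie mostly above 0.

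A common movement was that of the cytosolic ribosome, the machine that makes most of the protein of the cell. Of 110 tested genes for proteins of its small subunit 94 fell and 0 rose (median log2 change -2.12), and of 165 for the large subunit 144 fell and 2 rose (median -2.0). These are 85.5% and 87.3% of the tested members, beside 19.0% of all tested genes. Summed over the genes listed, the small subunit was at 1368 to 1433 FPKM at 20d and 6935 to 7105 FPKM at 2d, and the large subunit at 2137 to 2212 FPKM at 20d and 9843 to 10038 FPKM at 2d. The small-subunit gene with the highest mean, 40S ribosomal protein S8-like (PH02Gene42751, scaffold 24, 22505138 to 22508346, minus strand), had 21.3, 23.8, 22.6 and 23.6 FPKM in the 20d libraries, against 498, 499, 481 and 491 FPKM in the 2d libraries (log2 change -4.42, SE 0.03, adjusted p = 3.03e-26). No library of one time came near the other time. 60S ribosomal protein L5-1 (PH02Gene29817), which binds the 5S RNA, fell to 64.9 ± 2.21 FPKM at 20d, against 587 ± 11.6 at 2d. PH02Gene00035, 40S ribosomal protein S7, fell to 35.7 ± 2.74 FPKM at 20d, against 265 ± 8.22 at 2d. PH02Gene33451, 60S ribosomal protein L36a, fell to 124 ± 5.96 FPKM at 20d, against 337 ± 12 at 2d.

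Few genes went the other way. 60S ribosomal protein L28-1-like (PH02Gene06519) rose, with 84.1, 88.5, 88.7 and 85.2 FPKM in the 20d libraries, against 19.8, 20.5, 19.5 and 22.3 FPKM in the 2d libraries. At the other end 60S ribosomal protein L13-1-like (PH02Gene13568, scaffold 14, 39130524 to 39131117, plus strand) had no count in any 20d library, against 18, 14.6, 16.7 and 17.3 FPKM in the 2d libraries, so it was at least 90-fold lower against a floor of 3 fragments over the group. Ribosomal proteins have near-identical copies, and how reads were split between copies is not given in the sources used here, so single members are less certain than the sums.

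Genes that build and feed ribosomes gave smaller shares, to be read beside the 19.0% lower and 16.6% higher of all tested genes. Of 98 tested genes of ribosome biogenesis 38 fell (38.8%) and 2 rose (median -0.80). The processing protein FCF1 homolog (PH02Gene17221), needed to trim ribosomal RNA, fell to 51.2 ± 1.72 FPKM at 20d, against 131 ± 7.98 at 2d. The pescadillo homolog (PH02Gene18255), a factor of large-subunit assembly, fell to 26.1 ± 0.583 FPKM at 20d, against 129 ± 2.28 at 2d. One of the 2 that rose was nuclear/nucleolar GTPase 2 (PH02Gene27407, 18.6 ± 0.936 FPKM at 20d, against 2.36 ± 0.629 at 2d). Of 99 initiation and elongation factors 24 fell and 5 rose (median -0.31), shares of 24.2% and 5.05%. Initiation factor 5A-2 (PH02Gene11118), which helps stalled ribosomes on, fell to 107 ± 2.68 FPKM at 20d, against 290 ± 3.04 at 2d. A second gene of that name (PH02Gene21674) fell to 86.4 ± 2.61 FPKM at 20d, against 239 ± 4.57 at 2d. Initiation factor 5 (PH02Gene15165), which helps to select the start codon, rose to 188 ± 3.08 FPKM at 20d, against 86.2 ± 1.11 at 2d. Of 70 tRNA ligases, which load amino acids onto transfer RNA, 15 fell (21.4%) and 4 rose (median -0.59). The most abundant, arginine--tRNA ligase (PH02Gene29247), was not called at 88.3 ± 3.08 FPKM at 20d, against 129 ± 3.73 at 2d. Another arginine--tRNA ligase gene (PH02Gene44667) fell to 15.2 ± 0.712 FPKM at 20d, against 42.5 ± 1.25 at 2d. Lysine--tRNA ligase (PH02Gene28044) fell to 46.5 ± 0.772 FPKM at 20d, against 94.4 ± 2.06 at 2d, at the size limit, and without 2d replicate 3 it was not called (log2 change -1.0), and methionine--tRNA ligase (PH02Gene06660) rose to 37.8 ± 2.02 FPKM at 20d, against 6.66 ± 0.740 at 2d.

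Ribosomal proteins of plastids and mitochondria moved less together. Of 58 tested genes 25 fell (43.1%, beside 19.0% of all tested genes) and 3 rose (5.17%, beside 16.6%, median -0.75). Protein L1 of the chloroplast (PH02Gene16107) fell to 8.99 ± 0.917 FPKM at 20d, against 35.3 ± 1.41 at 2d, and mitochondrial L37 (PH02Gene33842) to 9.90 ± 0.562 FPKM at 20d, against 34.8 ± 3.99 at 2d. The most abundant gene of the list rose: chloroplast protein S13 (PH02Gene29986) rose to 95.6 ± 1.84 FPKM at 20d, against 24.3 ± 2.47 at 2d.

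Groups of genes that take proteins and RNA apart differed from one another. Of 64 tested genes for cysteine and vacuolar proteases 33 rose (51.6%, beside 16.6% of all tested genes) and 4 fell, with a median log2 change of 1.01. Their summed level was 8207 to 8295 FPKM at 20d and 3663 to 3720 FPKM at 2d. Oryzain alpha chain (PH02Gene45588, scaffold 23, 6351059 to 6354755, plus strand), named after a papain-type protease of rice seeds, had 2443, 2486, 2457 and 2491 FPKM in the 20d libraries, against 1157, 1166, 1113 and 1158 FPKM in the 2d libraries. Its log2 change was 1.12 (SE 0.02) and adjusted p 2.86e-22. Every 20d library was above every 2d library by a wide margin. Cathepsin B-like protease 2 (PH02Gene18957) rose to 1086 ± 9.82 FPKM at 20d, against 276 ± 1.60 at 2d (log2 change 1.99, SE 0.02, adjusted p = 3.11e-25). Among the 4 that fell, metacaspase 9 (PH02Gene32321) was the most abundant, at 3.75 ± 0.512 FPKM at 20d, against 9.77 ± 0.428 at 2d.

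Nucleases, which cut DNA and RNA, gave a short list of 10 tested genes, of which 5 rose and 2 fell. Endonuclease 2 (PH02Gene20219, scaffold 14, 103961443 to 103965215, minus strand) accounted for most of its level, with 1343, 1308, 1327 and 1319 FPKM in the 20d libraries, against 313, 313, 302 and 304 FPKM in the 2d libraries (log2 change 2.12, SE 0.02, adjusted p = 1.31e-25). Ribonuclease 3-like protein 3 (PH02Gene42276) rose to 66.2 ± 0.852 FPKM at 20d, against 20.6 ± 1.90 at 2d. Bifunctional nuclease 1 (PH02Gene06542), at 1.76 ± 0.231 FPKM at 20d, against 3.57 ± 0.223 at 2d, passed the size limit by little (log2 change -1.01, SE 0.14), and without 20d replicate 3 it was not called (log2 change -0.94).

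Autophagy genes rose in 9 of 45 cases and fell in 1 (median 0.43), a share of 20.0% beside 16.6%. The summed level was 4453 to 4518 FPKM at 20d and 2739 to 2818 FPKM at 2d. Autophagy-related protein 8C (PH02Gene25011), whose product coats the forming vesicle, was at 1134 ± 13.2 FPKM at 20d, against 601 ± 12.6 at 2d with a log2 change of 0.93 (SE 0.02), not called. The genes atg7 (PH02Gene40863, 323 ± 1.99 FPKM at 20d, against 104 ± 0.480 at 2d) and autophagy-related protein 3 (PH02Gene02916, 177 ± 1.84 FPKM at 20d, against 81.4 ± 2.05 at 2d), whose products attach that coat protein to lipid, rose. ATG8-interacting protein 1 (PH02Gene28867) was the gene that fell, at 12.7 ± 0.421 FPKM at 20d, against 28.8 ± 1.67 at 2d. Proteasome subunits, which degrade tagged proteins outside the vacuole, had 3 genes higher and 4 lower of 83 (median -0.04), and the most abundant, subunit alpha type-2 (PH02Gene16939), was at 135 ± 5.69 FPKM at 20d, against 167 ± 1.13 at 2d. Regulatory subunit RPN13 (PH02Gene30228), a ubiquitin receptor, fell to 28.4 ± 1.65 FPKM at 20d, against 80.1 ± 2.71 at 2d. Subunit alpha type-5 (PH02Gene44017) fell to 33.6 ± 1.68 FPKM at 20d, against 68.4 ± 3.23 at 2d, but was not called without 20d replicate 3 (log2 change -0.99) or 2d replicate 2 (-0.98). Regulatory subunit 14 (PH02Gene14785) rose to 87 ± 3.64 FPKM at 20d, against 39.4 ± 2.91 at 2d.

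Subtilisin-like proteases, secreted serine proteases, fell in 11 of 24 tested cases and rose in 2 (median -0.72, a list added after values had been seen). Of these, 8 of the 11 that fell averaged below 1 FPKM at 20d. The summed level was 120 to 125 FPKM at 20d and 940 to 961 FPKM at 2d. Most of the level at 2d, though not at 20d, came from 2 genes for subtilisin-like protease SBT3.9, of which PH02Gene39294 had 1.49, 1.23, 1.48 and 1.38 FPKM in the 20d libraries, against 275, 277, 276 and 277 FPKM in the 2d libraries (log2 change -7.61, SE 0.04, adjusted p = 6.82e-27) and PH02Gene32793 fell to 2.05 ± 0.527 FPKM at 20d, against 244 ± 12.7 at 2d. Subtilisin-like protease SBT2.3 (PH02Gene00734) rose to 4.44 ± 0.125 FPKM at 20d, against 1.90 ± 0.295 at 2d.

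Amino acid and fat breakdown shifted in single enzymes rather than as lists. Of 70 genes of amino acid breakdown and asparagine synthesis 11 rose and 16 fell (median -0.02). Cytosolic glutamine synthetase 1-1 (PH02Gene04855), which captures free ammonium, rose to 387 ± 7.67 FPKM at 20d, against 141 ± 0.756 at 2d. Glutamate dehydrogenase A-like (PH02Gene27470), which releases ammonium from glutamate, fell to 319 ± 0.973 FPKM at 20d, against 649 ± 16.1 at 2d, close to the size limit (log2 change -1.02). Fumarylacetoacetase (PH02Gene49418), of tyrosine breakdown, fell to 10.6 ± 3.46 FPKM at 20d, against 29.3 ± 4.79 at 2d. Asparagine synthetase 1 (PH02Gene23545) was not called, at 663 ± 3.57 FPKM at 20d, against 387 ± 12 at 2d. Of 48 peroxisomal genes of fatty acid breakdown 10 rose and 2 fell (median 0.38). 3-ketoacyl-CoA thiolase 2 (PH02Gene05899) rose to 533 ± 4.56 FPKM at 20d, against 219 ± 3.22 at 2d. The multifunctional protein of glyoxysomes (PH02Gene50127) rose to 299 ± 3.35 FPKM at 20d, against 146 ± 0.805 at 2d. A second thiolase gene (PH02Gene18274) fell to 14.2 ± 0.706 FPKM at 20d, against 34.3 ± 2.35 at 2d.

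**Figure D2:**
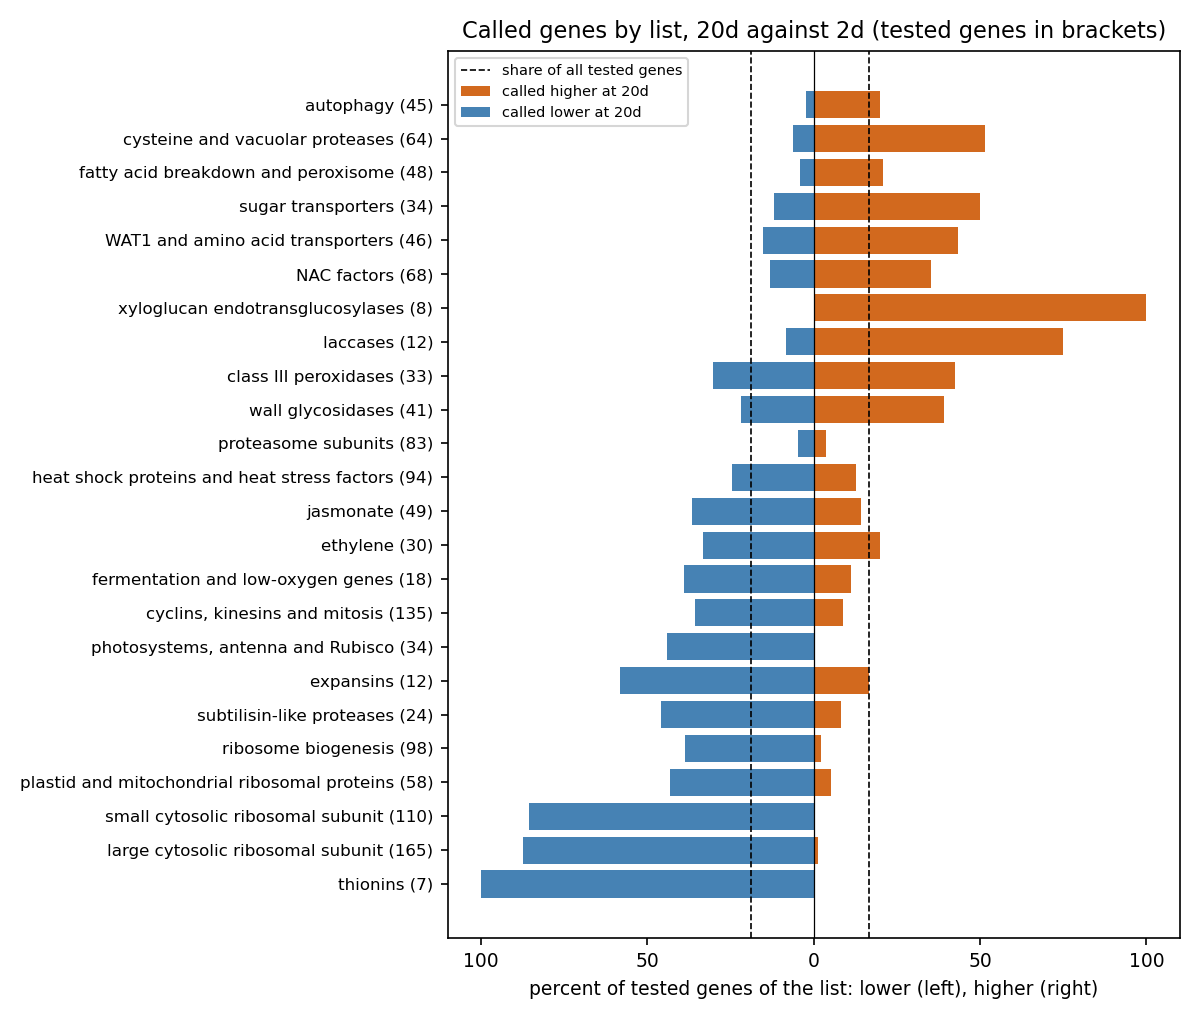
Percent of the tested genes of each of 24 gene lists called higher (right, orange) and lower (left, blue) at 20d than at 2d, with the number of tested genes in brackets and dashed lines at the shares of all tested genes, 16.6% higher and 19.0% lower. Ribosomal proteins and thionins stand far left of the line, proteases, laccases and xyloglucan endotransglucosylases far right, and proteasome subunits inside both lines.

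Wall genes separated by enzyme family. Laccases, copper enzymes that oxidise lignin alcohols, rose in 9 of 12 tested cases and fell in 1 (median 3.61), and their summed level was 82.0 to 85.5 FPKM at 20d and 9.67 to 11.6 FPKM at 2d. Of the 12, 9 had a mean FPKM below 1 at 2d and passed the filter through their 20d level, so their count says little beyond that level. Laccase-19-like (PH02Gene43658, scaffold 7, 56647741 to 56651622, plus strand) had 20.6, 23.8, 22.6 and 23.8 FPKM in the 20d libraries, against 0.441, 0.808, 0.652 and 0.463 FPKM in the 2d libraries, and laccase-20-like (PH02Gene43657) on the same scaffold rose to 15.3 ± 0.822 FPKM at 20d, against 0.238 ± 0.103 at 2d. Both were near 0 at 2d in every library. Laccase-22-like (PH02Gene23801) fell to 0.515 ± 0.134 FPKM at 20d, against 1.78 ± 0.188 at 2d.

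Class III peroxidases, the other enzymes that couple lignin alcohols, were split, with 14 of 33 higher and 10 lower (median 0.51, and -0.13 with no filter on low values). Their summed level was 2755 to 2851 FPKM at 20d and 1309 to 1382 FPKM at 2d. Cationic peroxidase SPC4-like (PH02Gene06848, scaffold 14, 86905204 to 86908288, plus strand) had 1043, 1069, 1083 and 1046 FPKM in the 20d libraries, against 315, 318, 293 and 311 FPKM in the 2d libraries (log2 change 1.79, SE 0.02, adjusted p = 1.98e-21). Peroxidase 2-like (PH02Gene25200) rose to 471 ± 12.9 FPKM at 20d, against 169 ± 4.75 at 2d. Peroxidase 3 (PH02Gene48469) fell to 43.9 ± 1.13 FPKM at 20d, against 99.4 ± 1.31 at 2d.

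Enzymes that make the lignin alcohols did not move together. Of 69 tested genes of the phenylpropanoid pathway 16 rose and 15 fell (median -0.06). Of the 16 that rose, 6 averaged below 1 FPKM at 2d, and of the 15 that fell, 5 did so at 20d. The gene with the highest mean, cinnamoyl-CoA reductase 1 (PH02Gene01704), was at 918 ± 9.49 FPKM at 20d, against 1659 ± 18.4 at 2d and was not called (log2 change -0.84). Putative ferulate 5-hydroxylase PH02Gene08874, an enzyme of the syringyl branch, fell to 261 ± 4.05 FPKM at 20d, against 529 ± 9.23 at 2d, at the size limit (log2 change -1.0), and without 2d replicate 4 it was not called. 4-coumarate--CoA ligase-like 1 (PH02Gene03593) rose to 80.9 ± 1.61 FPKM at 20d, against 19.1 ± 1.03 at 2d, and caffeoylshikimate esterase (PH02Gene14766) to 64.8 ± 2.26 FPKM at 20d, against 3.58 ± 0.564 at 2d.

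Xyloglucan endotransglucosylases, which cut and rejoin the chains that tie cellulose together, rose in 8 of 8 tested cases (median 3.45). A further 31 of the 39 genes in the table were below the filter, and 4 of the 8 had a mean FPKM below 1 at 2d. With those genes included the median log2 change was -1.02. The most abundant, PH02Gene33907, had 36.7, 35.8, 35.8 and 38.3 FPKM in the 20d libraries, against 10.2, 9.06, 7.15 and 9.61 FPKM in the 2d libraries, and PH02Gene02745 rose to 20.4 ± 0.883 FPKM at 20d, against 1.58 ± 0.293 at 2d. Expansins, proteins that loosen walls during growth, had 7 of 12 lower (58.3%, beside 19.0% of all tested genes) and 2 higher (16.7%, beside 16.6%, median -1.51). Of the 7 that fell, 3 averaged below 1 FPKM at 20d, as both that rose did at 2d. The summed level of expansins was 135 to 156 FPKM at 20d and 337 to 371 FPKM at 2d. Expansin-like A2 (PH02Gene50483) fell to 36.1 ± 7.95 FPKM at 20d, against 109 ± 1.41 at 2d. Expansin-like A1 (PH02Gene00824) fell to 41.7 ± 1.86 FPKM at 20d, against 100 ± 2.09 at 2d. Expansin-like B1 (PH02Gene13121) rose to 2.89 ± 0.266 FPKM at 20d, against 0.961 ± 0.126 at 2d.

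Cellulose synthases, which spin the main fibre of the wall, had 2 of 16 genes higher and 2 lower (median 0.08, and -0.22 with no filter). Catalytic subunit 5 gene PH02Gene08830 was not called at 123 ± 4.29 FPKM at 20d, against 63.5 ± 1.02 at 2d. PH02Gene08325 of the same name rose to 76.4 ± 2.04 FPKM at 20d, against 27.4 ± 0.845 at 2d. PH02Gene22327, another subunit 5 gene, rose to 6.63 ± 0.309 FPKM at 20d, against 1.16 ± 0.432 at 2d. Cellulose synthase PH02Gene30488 fell to 18.7 ± 0.523 FPKM at 20d, against 50.1 ± 0.477 at 2d. Of 17 cellulose synthase-like genes 7 rose and 3 fell (median 0.13, and -0.36 with no filter). Xyloglucan glycosyltransferase 2 (PH02Gene09964) rose to 49.3 ± 0.945 FPKM at 20d, against 14.6 ± 0.950 at 2d. Cellulose synthase-like protein E6 (PH02Gene05971) rose to 17.4 ± 0.367 FPKM at 20d, against 5.24 ± 0.180 at 2d. Protein H1 (PH02Gene49258), whose family makes the mixed-linkage glucan of grasses, fell to 6.85 ± 0.586 FPKM at 20d, against 20.8 ± 1.92 at 2d. Genes of xylan synthesis rose in 17 of 60 cases and fell in 9 (median 0.41). Xylan alpha-glucuronosyltransferase 1-like (PH02Gene10692), which adds side groups to xylan, rose to 218 ± 3.32 FPKM at 20d, against 85.5 ± 1.66 at 2d. Glucuronosyltransferase PGSIP7 (PH02Gene01643) rose to 39.8 ± 0.788 FPKM at 20d, against 10.4 ± 0.450 at 2d. Trichome birefringence-like 28 (PH02Gene29195) fell to 8.20 ± 0.680 FPKM at 20d, against 17.6 ± 0.932 at 2d.

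Enzymes that strip sugars from wall polymers held some of the largest rises. Of 41 tested wall glycosidases, a list added after values had been seen, 16 rose and 9 fell (median 0.40), and the summed level was 2155 to 2192 FPKM at 20d and 694 to 704 FPKM at 2d. Of the 16 that rose, 6 averaged below 1 FPKM at 2d, and of the 9 that fell, 2 did so at 20d. Alpha-L-arabinofuranosidase 1-like (PH02Gene23576, scaffold 12, 3030366 to 3037579, plus strand), which removes arabinose from xylan and pectin, had 467, 466, 464 and 469 FPKM in the 20d libraries, against 20.5, 19.8, 19.9 and 20.8 FPKM in the 2d libraries (log2 change 4.54, SE 0.02, adjusted p = 9.68e-29). Beta-galactosidase 9 (PH02Gene38538) rose to 294 ± 3.19 FPKM at 20d, against 66.6 ± 0.769 at 2d. Beta-galactosidase 2 (PH02Gene28282) fell to 47.2 ± 1.01 FPKM at 20d, against 152 ± 1.84 at 2d.

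Both beta-D-xylosidase 2 genes among the 10 largest rises were close to 0 at 2d: PH02Gene38089 had 82.3, 88, 82.5 and 86.3 FPKM in the 20d libraries, against 0.135, 0.191, 0.107 and 0.274 FPKM in the 2d libraries (log2 change 8.91, SE 0.11), and PH02Gene33530 rose to 41.9 ± 1.05 FPKM at 20d, against 0.0915 ± 0.0189 at 2d. The mannanase gene PH02Gene34315 (mannan endo-1,4-beta-mannosidase 5) had 19.4, 21.9, 20.8 and 21.3 FPKM in the 20d libraries, against 0.0511, 0, 0.0442 and 0 FPKM in the 2d libraries. The ratio was 846 on 2.5 fragments at 2d. Its exact 95% Clopper-Pearson interval, with the fragments rounded up to a whole number, was 241 to 3420. Of 61 genes of pectin remodelling 20 rose and 15 fell (median 0.47), where 9 of the 20 that rose averaged below 1 FPKM at 2d and 8 of the 15 that fell averaged below 1 FPKM at 20d. Pectin acetylesterase 12 (PH02Gene39135) was not called at 81.7 ± 3.05 FPKM at 20d, against 157 ± 2.38 at 2d. Polygalacturonase At1g80170 (PH02Gene14642), which cuts pectin, rose to 20.2 ± 1.53 FPKM at 20d, against 0.0510 ± 0.0981 at 2d. Pectinesterase inhibitor 10 (PH02Gene20130) rose to 43.5 ± 1.47 FPKM at 20d, against 0.678 ± 0.295 at 2d. Polygalacturonase PH02Gene00883 rose to 26.3 ± 0.886 FPKM at 20d, against 11.4 ± 0.101 at 2d. PH02Gene41358 of the same name fell to 2.76 ± 0.273 FPKM at 20d, against 10.2 ± 0.537 at 2d.

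Genes of surface lipids moved in both directions. Of 35 genes for lipid transfer proteins, wax and cutin 15 rose and 10 fell (median 0.66), where 6 of the 15 that rose averaged below 1 FPKM at 2d and 6 of the 10 that fell averaged below 1 FPKM at 20d. A lipid-transfer protein-like gene (PH02Gene08747) rose to 119 ± 3.83 FPKM at 20d, against 7.23 ± 0.629 at 2d. 3-ketoacyl-CoA synthase 1 (PH02Gene14140), which lengthens wax precursors, rose to 41.5 ± 0.582 FPKM at 20d, against 4.01 ± 0.197 at 2d. ECERIFERUM 3 (PH02Gene42181) fell to 1.82 ± 0.0918 FPKM at 20d, against 12.1 ± 0.400 at 2d. ABC transporter G family member 11-like (PH02Gene05945, scaffold 3, 14359717 to 14365247, minus strand), related to a wax and cutin exporter of Arabidopsis, had 384, 386, 376 and 391 FPKM in the 20d libraries, against 11.5, 11.8, 11.8 and 11.8 FPKM in the 2d libraries (log2 change 5.05, SE 0.02, adjusted p = 2.18e-29). It had the highest mean of 113 tested ABC transporter genes, of which 29 rose and 23 fell (median 0.16). Of the 29 that rose, 10 averaged below 1 FPKM at 2d, and of the 23 that fell, 9 did so at 20d. ABC transporter G 28-like (PH02Gene20858) rose to 189 ± 2.60 FPKM at 20d, against 46 ± 1.83 at 2d. Member 37 (PH02Gene16381) fell to 20.7 ± 0.349 FPKM at 20d, against 46.2 ± 0.771 at 2d. The summed epidermis and cuticle markers, given above, were also higher at 20d. They were picked by names that this list shares, 3-ketoacyl-CoA synthase and ECERIFERUM among them, so their sum is no separate observation.

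Of 105 genes for desaturases and membrane lipids 22 rose and 13 fell (median 0.39). The leading gene of that list is no membrane enzyme: caleosin (PH02Gene08095, scaffold 17, 14057663 to 14059459, minus strand), a calcium-binding protein of lipid droplets, had 2619, 2592, 2720 and 2637 FPKM in the 20d libraries, against 782, 780, 766 and 748 FPKM in the 2d libraries (log2 change 1.79, SE 0.02, adjusted p = 5.61e-24), the highest FPKM at 20d among the genes named here. Non-specific phospholipase C1 (PH02Gene33172) rose to 130 ± 3.39 FPKM at 20d, against 31.4 ± 1.96 at 2d. Phospholipase D alpha 1 (PH02Gene10648) fell to 31 ± 0.966 FPKM at 20d, against 79.7 ± 2.33 at 2d.

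Photosynthesis genes fell or were not called. Of 34 tested genes for photosystems, antenna and Rubisco 15 fell and 0 rose (44.1%, median -0.73), but 11 of the 15 that fell averaged below 1 FPKM at 20d. The most abundant, light-harvesting complex-like OHP1 (PH02Gene36977), was not called at 166 ± 15.5 FPKM at 20d, against 300 ± 11.4 at 2d. Oxygen-evolving enhancer protein 1 (PH02Gene49304), which shields the site of water splitting, had 3.08, 3.57, 3.42 and 2.78 FPKM in the 20d libraries, against 31.3, 34.8, 32.2 and 30.4 FPKM in the 2d libraries (log2 change -3.31, SE 0.08, adjusted p = 1.45e-18). The 10 kDa polypeptide of photosystem II (PH02Gene08266) fell to 4.77 ± 0.893 FPKM at 20d, against 12.5 ± 1.41 at 2d. Of 20 genes for chlorophyll breakdown and senescence 6 rose and 3 fell (median 0.46), and the leading gene of that list fell: SENESCENCE-ASSOCIATED GENE 21 (PH02Gene40131), a small mitochondrial protein of the LEA family, fell to 191 ± 17.9 FPKM at 20d, against 614 ± 88.3 at 2d. Stay-green protein (PH02Gene05142), which starts chlorophyll breakdown by removing magnesium, rose to 97.4 ± 0.655 FPKM at 20d, against 27.3 ± 2.44 at 2d, and senescence-associated protein DH (PH02Gene19014) to 78.7 ± 1.90 FPKM at 20d, against 5.89 ± 0.630 at 2d. Heme oxygenase 1 of the chloroplast (PH02Gene39434, scaffold 6, 41552069 to 41556282, plus strand), which makes the precursor of the phytochrome pigment, had 914, 933, 934 and 903 FPKM in the 20d libraries, against 88.9, 89.7, 86.1 and 90.9 FPKM in the 2d libraries (log2 change 3.38, SE 0.02, adjusted p = 3.22e-27).

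Cell division genes differed by list. Of 135 tested genes for cyclins, kinesins and mitosis 48 fell (35.6%, beside 19.0% of all tested genes) and 12 rose (8.89%, beside 16.6%). Their median log2 change was -0.48, but 27 of the 48 that fell averaged below 1 FPKM at 20d. Kinesin KIN-4A (PH02Gene30424), a motor that guides wall deposition in Arabidopsis, fell to 23.1 ± 0.620 FPKM at 20d, against 70.2 ± 2.17 at 2d. Condensin subunit 3 (PH02Gene07303) fell to 23.1 ± 0.768 FPKM at 20d, against 51.5 ± 3.07 at 2d. The spindle protein TPX2 (PH02Gene20932) rose to 38.7 ± 0.650 FPKM at 20d, against 5.60 ± 0.375 at 2d. Histones, the proteins that package DNA, had 2 of 23 genes higher and 4 lower (median 0.07). Histone H1E (PH02Gene36226) was not called at 183 ± 1.81 FPKM at 20d, against 105 ± 4.90 at 2d. Histone H4 (PH02Gene37025) rose to 45.2 ± 2.79 FPKM at 20d, against 19.8 ± 1.05 at 2d, and histone H2AXb (PH02Gene00676), a variant tied to DNA repair, fell to 2.60 ± 0.277 FPKM at 20d, against 8.82 ± 1.42 at 2d. H2A variant 2 (PH02Gene16957) fell to 2.48 ± 0.332 FPKM at 20d, against 8.63 ± 2.28 at 2d. Of 51 replication genes 12 fell (23.5%, beside 19.0% of all tested genes) and 4 rose (median -0.13), and 6 of the 12 that fell averaged below 1 FPKM at 20d. The most abundant, thymidylate kinase (PH02Gene32490), was not called at 30.2 ± 1.48 FPKM at 20d, against 36.7 ± 2.49 at 2d. DNA ligase 1 (PH02Gene11594), which seals new strands, fell to 1.09 ± 0.109 FPKM at 20d, against 8.05 ± 0.249 at 2d. The small subunit of DNA polymerase delta (PH02Gene00860) fell to 4.50 ± 0.157 FPKM at 20d, against 12.9 ± 0.302 at 2d, and its catalytic subunit (PH02Gene16237) rose to 10.7 ± 0.373 FPKM at 20d, against 3.83 ± 0.250 at 2d. Summed markers of dividing cells were 91.3 to 102 FPKM at 20d and 84.6 to 87.0 FPKM at 2d, with 1 of 8 tested markers higher and 2 lower.

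Thionins, small antimicrobial peptides that damage the membranes of microbes, fell by large factors. All 7 tested thionin genes fell (a list added after values had been seen, in which 4 averaged below 1 FPKM at 20d), with a median log2 change of -8.19, or -8.11 with the 2 genes that had no count at 20d set at their bound. The summed level of the 8 thionin genes in the table was 11.1 to 15.7 FPKM at 20d and 4592 to 4971 FPKM at 2d. Thionin PH02Gene28216 (scaffold 23, 77648417 to 77648994, minus strand) had 6.47, 2.63, 5.44 and 4.60 FPKM in the 20d libraries, against 2454, 2387, 2308 and 2314 FPKM in the 2d libraries (log2 change -8.95, SE 0.17, adjusted p = 4.81e-09). Leaf-specific thionin PH02Gene25370 fell to 3.92 ± 0.832 FPKM at 20d, against 1103 ± 36.2 at 2d. PH02Gene39251 fell to 0.467 ± 0.398 FPKM at 20d, against 149 ± 10.8 at 2d. Leaf-specific thionin PH02Gene50531 had no count in the 20d libraries, against 137, 148, 151 and 153 FPKM in the 2d libraries, at least 2041-fold lower, and thionin PH02Gene28218 was at least 109-fold lower. Thionins PH02Gene28216, PH02Gene28218, PH02Gene25370 and PH02Gene39251 lie on the same scaffold, and thionins share their descriptions, so reads may be shared between them.

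Other defence genes moved in both directions. Of 92 tested genes for pathogenesis-related proteins, chitinases and protease inhibitors, a list that holds the thionins, 34 rose and 26 fell (median 0.28, and -0.06 with stray members that the description pattern lets in). Of these, 15 of the 34 that rose averaged below 1 FPKM at 2d and 12 of the 26 that fell averaged below 1 FPKM at 20d. Pathogenesis-related protein PRB1-2 (PH02Gene19059) rose to 195 ± 5.88 FPKM at 20d, against 9.48 ± 2.09 at 2d, and cysteine proteinase inhibitor 12 (PH02Gene13200), at 121 ± 3.37 FPKM at 20d, against 60.5 ± 1.87 at 2d, passed the size limit by little (log2 change 1.02), and without 20d replicate 3 it was not called (log2 change 0.99). A beta-1,3-glucanase gene (PH02Gene49359) had 5.96, 7.20, 4.68 and 7.72 FPKM in the 20d libraries and no count at 2d.

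The jasmonate list had 18 of 49 genes lower (36.7%, beside 19.0% of all tested genes) and 7 higher (14.3%, beside 16.6%, median -0.59). Of the 18 that fell, 8 averaged below 1 FPKM at 20d. The leading members of the list belong to another branch. They are linoleate 9S-lipoxygenases, which oxygenate fatty acids at a position that does not lead to jasmonate. PH02Gene51050 (scaffold 13545, 428 to 4637, minus strand) had 39, 38, 37.8 and 38.7 FPKM in the 20d libraries, against 1969, 2033, 1898 and 2027 FPKM in the 2d libraries (log2 change -5.68, SE 0.02, adjusted p = 6.69e-26), PH02Gene12522 fell to 25.4 ± 5.23 FPKM at 20d, against 1480 ± 39.7 at 2d and PH02Gene12524 to 21.6 ± 0.406 FPKM at 20d, against 1276 ± 29.9 at 2d. They carry the same description, and how reads were split between them is not given in the sources used here. 12-oxophytodienoate reductase 11 (PH02Gene28163), of a family that includes an enzyme of the jasmonate path, rose to 160 ± 3.07 FPKM at 20d, against 55.6 ± 3.44 at 2d.

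Ethylene genes were lower in 10 of 30 cases (33.3%, beside 19.0% of all tested genes) and higher in 6 (20%, beside 16.6%, median -0.23). Of the 10 that fell, 4 averaged below 1 FPKM at 20d. The leading genes make the hormone: 1-aminocyclopropane-1-carboxylate oxidase catalyses the last step. PH02Gene22088 (scaffold 3, 18031097 to 18032579, plus strand) had 1.45, 2.15, 1.64 and 1.28 FPKM in the 20d libraries, against 306, 320, 330 and 339 FPKM in the 2d libraries (log2 change -7.60, SE 0.11, adjusted p = 3.12e-10), and PH02Gene22087 on the same scaffold fell to 0.672 ± 0.101 FPKM at 20d, against 122 ± 1.22 at 2d. Ethylene receptor 3 (PH02Gene16274) rose to 40.4 ± 1.11 FPKM at 20d, against 17.9 ± 0.410 at 2d.

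Enzymes of methylated and glycosylated small molecules gave large changes both ways. Of 19 O-methyltransferases of flavonoids and benzenoids, a list added after values had been seen, 7 rose and 8 fell (median -1.22). All 7 that rose averaged below 1 FPKM at 2d, and 4 of the 8 that fell averaged below 1 FPKM at 20d. Anthranilate O-methyltransferase 2 (PH02Gene34735, scaffold 6, 20007656 to 20010572, minus strand), named for the maize enzyme that makes the volatile methyl anthranilate, had 576, 580, 581 and 581 FPKM in the 20d libraries, against 2627, 2649, 2681 and 2614 FPKM in the 2d libraries (log2 change -2.18, SE 0.01, adjusted p = 2.29e-27). A second such gene (PH02Gene34144) fell to 0.885 ± 0.152 FPKM at 20d, against 137 ± 2.25 at 2d. Naringenin 7-O-methyltransferase (PH02Gene35698), which in rice makes the antimicrobial flavonoid sakuranetin, rose to 147 ± 8.80 FPKM at 20d, against 0.644 ± 0.161 at 2d. Of 33 flavonoid genes 13 rose and 6 fell (median 0.56, and -0.01 with no filter), and 7 of the 13 that rose averaged below 1 FPKM at 2d. Anthocyanidin 3-O-glucosyltransferase 2-like (PH02Gene41261) was not called at 81.9 ± 4.61 FPKM at 20d, against 56 ± 3.12 at 2d. Flavanone 3-dioxygenase 3 (PH02Gene13847) rose to 47.8 ± 1.42 FPKM at 20d, against 21.6 ± 1.28 at 2d. In that list flavonoid O-methyltransferase-like Os11g0303600 (PH02Gene24614) rose to 63.3 ± 1.41 FPKM at 20d, against 0.339 ± 0.0855 at 2d. Flavonoid-3-O-glucosyltransferase PH02Gene41519 fell to 1.25 ± 0.117 FPKM at 20d, against 58.4 ± 1.17 at 2d. Ornithine decarboxylase (PH02Gene16563), which starts polyamine synthesis, had 0.178, 0.195, 0.0485 and 0.279 FPKM in the 20d libraries, against 80.9, 84.2, 80.3 and 79.6 FPKM in the 2d libraries (log2 change -8.78, SE 0.13, adjusted p = 2.12e-16). An oxime monooxygenase-like P450 gene (PH02Gene41830) was at 10.2 ± 0.855 FPKM at 20d and near 0 at 2d.

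**Figure D3:**
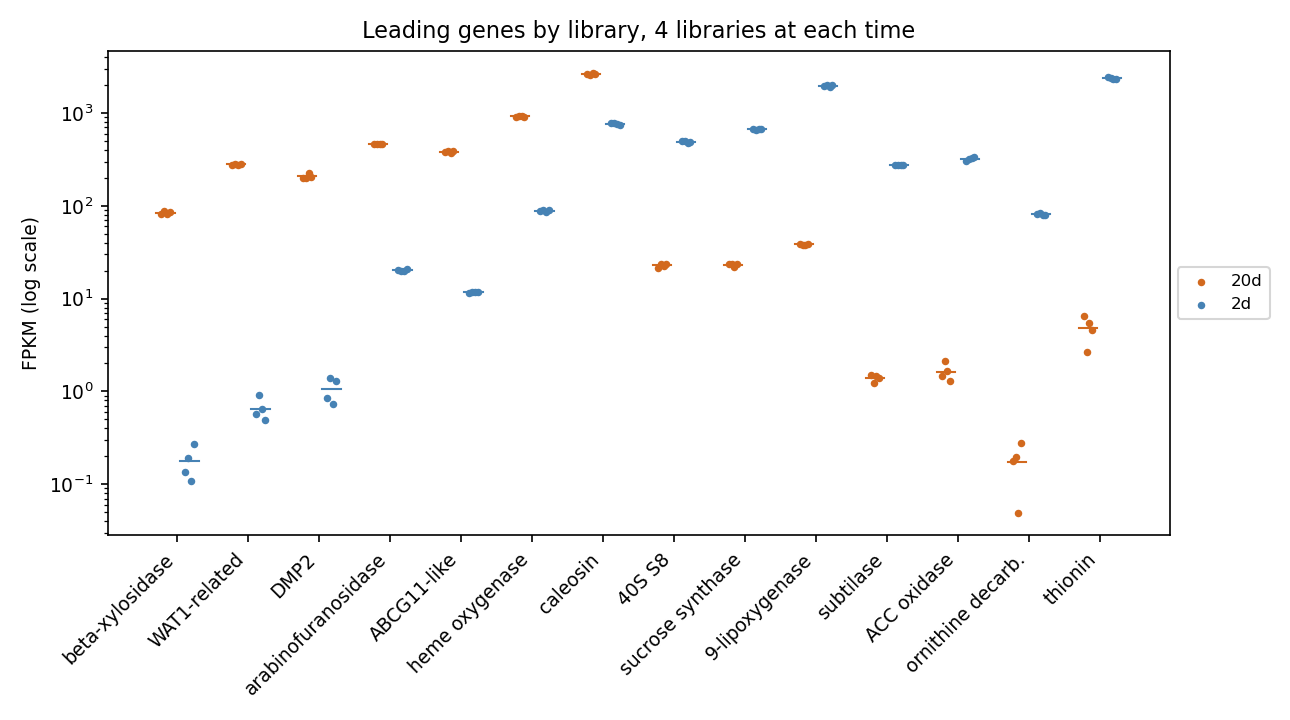
FPKM (vertical log axis) of 14 named genes in each library, with the 4 libraries of 20d in orange left of the 4 libraries of 2d in blue and short lines at the means. The points of the 2 times are apart for all 14 genes, and the spread within a time is visible only for genes near or below 10 FPKM.

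Stress proteins were mixed. Of 94 heat shock proteins and heat stress factors 23 fell and 12 rose (median -0.15). Heat shock protein 70 (PH02Gene35944), a chaperone that holds unfolded proteins, had 60.1, 62, 60.2 and 63.3 FPKM in the 20d libraries, against 603, 606, 592 and 608 FPKM in the 2d libraries (log2 change -3.28, SE 0.02, adjusted p = 3.44e-27). Heat shock cognate 70 kDa protein 2 (PH02Gene11794) fell to 38.3 ± 0.231 FPKM at 20d, against 119 ± 3.07 at 2d. Hsp90 (PH02Gene07542) rose to 35.3 ± 0.546 FPKM at 20d, against 14.9 ± 1.08 at 2d. Dehydrins and LEA proteins, which protect dry or cold cells, rose in 4 of 11 tested cases and fell in 1 (median 0.77), but all 4 that rose averaged below 1 FPKM at 2d. The most abundant dehydrin, DHN3 PH02Gene11487, was not called at 174 ± 7.23 FPKM at 20d, against 137 ± 2.34 at 2d. Another DHN3 gene (PH02Gene07646) rose to 23.6 ± 0.530 FPKM at 20d, against 0.459 ± 0.315 at 2d. LEA protein Lea5-D (PH02Gene23248) rose to 10.7 ± 0.424 FPKM at 20d, against 0.850 ± 0.287 at 2d. Dehydrin COR410 (PH02Gene01531) fell to 8.33 ± 0.546 FPKM at 20d, against 18.4 ± 1.94 at 2d. Genes of raffinose sugars, cold protectants in many plants, had 3 of 9 higher and 3 lower (median -0.23, and 0.28 with no filter). Galactosyltransferase 6 (PH02Gene11640) fell to 52.2 ± 1.34 FPKM at 20d, against 112 ± 2.14 at 2d. Galactosyltransferase 2 (PH02Gene48920) rose to 40.2 ± 1.64 FPKM at 20d, against 1.26 ± 0.240 at 2d and galactinol synthase 2 (PH02Gene28670), the first enzyme of the path, to 11.3 ± 1.04 FPKM at 20d, against 2.60 ± 0.266 at 2d.

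Of 49 antioxidant enzymes 6 rose and 10 fell (median -0.00). Catalase (PH02Gene05658), which splits hydrogen peroxide, fell to 492 ± 6.98 FPKM at 20d, against 1353 ± 62.3 at 2d. Ascorbate peroxidase 7 of the chloroplast (PH02Gene26535) fell to 29.7 ± 0.948 FPKM at 20d, against 116 ± 5.88 at 2d. Phospholipid hydroperoxide glutathione peroxidase 6 (PH02Gene27492) rose to 326 ± 4.76 FPKM at 20d, against 124 ± 2.71 at 2d. Of 63 glutathione S-transferases, which tag toxic compounds for storage, 13 rose and 20 fell (median -0.63, and 0.35 with no filter, which turns the direction). GSTF1 (PH02Gene33266) was not called at 1059 ± 5.72 FPKM at 20d, against 748 ± 16.5 at 2d. Transferase 4-like (PH02Gene28167) rose to 102 ± 3.28 FPKM at 20d, against 5.32 ± 0.367 at 2d, while transferase 1 (PH02Gene00763) fell to 99.9 ± 6.09 FPKM at 20d, against 430 ± 19 at 2d. F11-like (PH02Gene50171) fell to 24.3 ± 1.02 FPKM at 20d, against 145 ± 3.72 at 2d.

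Transcription factors moved in both directions. Of 68 NAC factors, a family with regulators of senescence and secondary walls, 24 rose (35.3%) and 9 fell (median 0.42). NAC 104 (PH02Gene26525) rose to 327 ± 4.45 FPKM at 20d, against 91.5 ± 1.48 at 2d. NAC 83-like (PH02Gene08630) rose to 238 ± 6 FPKM at 20d, against 115 ± 2.49 at 2d. NAC 67-like (PH02Gene34765) fell to 71.3 ± 2.18 FPKM at 20d, against 172 ± 2.57 at 2d. The most abundant, NAC 29-like (PH02Gene22100), was not called at 364 ± 6.60 FPKM at 20d, against 632 ± 9.15 at 2d. Of 84 MYB factors 26 rose and 14 fell (median 0.17), and 7 of the 14 that fell averaged below 1 FPKM at 20d. MYB-related protein Hv1 (PH02Gene14655) rose to 61.7 ± 4.42 FPKM at 20d, against 21.9 ± 2.22 at 2d. The repressor MYB4-like (PH02Gene13214) rose to 46.3 ± 0.394 FPKM at 20d, against 8.89 ± 0.798 at 2d. MYBS3 (PH02Gene02910) fell to 12.3 ± 0.318 FPKM at 20d, against 35.4 ± 1.98 at 2d, and PH02Gene35341, the most abundant, was just under the size limit at 68.5 ± 15.1 FPKM at 20d, against 35 ± 3.61 at 2d (log2 change 0.98), and it was called without 20d replicate 1, 3 or 4 or 2d replicate 3 (log2 change 1.01 to 1.05). WRKY factors, regulators of defence, rose in 16 of 45 cases and fell in 8 (median 0.27), but 12 of the 16 that rose averaged below 1 FPKM at 2d. PH02Gene37557, the most abundant, fell to 105 ± 1.58 FPKM at 20d, against 250 ± 3.94 at 2d. WRKY5 (PH02Gene11970) rose to 21 ± 1.54 FPKM at 20d, against 0.268 ± 0.190 at 2d. WRKY 35 (PH02Gene18114) rose to 17 ± 0.488 FPKM at 20d, against 5.88 ± 0.587 at 2d.

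AP2/ERF factors split evenly, with 18 of 70 higher and 20 lower (median 0.16), where 8 of the 18 that rose averaged below 1 FPKM at 2d and 8 of the 20 that fell averaged below 1 FPKM at 20d. Ethylene-responsive factor 1-like (PH02Gene38917) rose to 692 ± 7.10 FPKM at 20d, against 134 ± 4.52 at 2d. Ethylene-responsive factor 1 (PH02Gene02658) was not called at 320 ± 8.22 FPKM at 20d, against 519 ± 10.9 at 2d. AINTEGUMENTA-like AIL5 (PH02Gene22504), of a family that keeps meristems and young organs growing, had 2.58, 2.54, 2.41 and 2.37 FPKM in the 20d libraries, against 115, 113, 116 and 117 FPKM in the 2d libraries (log2 change -5.53, SE 0.04, adjusted p = 1.89e-26). Its mean was 1.83 FPKM at 0d and 57 FPKM at 6d, so it was high at 2d and near its starting level at 20d. DREB 2C-like (PH02Gene41094), of a family that responds to drought, fell to 30.1 ± 0.900 FPKM at 20d, against 123 ± 2.21 at 2d. Of 69 bHLH factors 18 rose and 18 fell (median 0.13, and -0.01 with no filter). bHLH107 (PH02Gene15574) fell to 126 ± 1.83 FPKM at 20d, against 496 ± 6.64 at 2d. bHLH13 (PH02Gene22432) rose to 224 ± 3.05 FPKM at 20d, against 77.1 ± 0.805 at 2d. ICE1 (PH02Gene07293), a cold regulator in Arabidopsis, rose to 138 ± 4.06 FPKM at 20d, against 67.7 ± 3.96 at 2d, just past the size limit (log2 change 1.04, and 0.99 without replicate 3 of both times). bHLH94-like (PH02Gene14795) had 1 fragment over the 20d libraries, against 12.7, 11.5, 12.2 and 10.3 FPKM in the 2d libraries, a ratio of 2d over 20d of 838 with an exact 95% interval of 150 to 33124.

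The other hormone lists moved in both directions. Of 42 abscisic acid genes 4 rose and 8 fell (median -0.09, and 0.07 with no filter), and 3 of the 4 that rose averaged below 1 FPKM at 2d. With the stray members that the description pattern lets in, 9 of 67 rose and 10 fell (median 0.15). The 9-cis-epoxycarotenoid dioxygenase gene (PH02Gene49504), for a step of synthesis, fell to 2.31 ± 0.413 FPKM at 20d, against 26.3 ± 1.59 at 2d. ABI5-like 2 (PH02Gene05570) fell to 5.28 ± 0.214 FPKM at 20d, against 39.6 ± 1.70 at 2d. Protein phosphatase 2C 50 (PH02Gene12893) was not called at 115 ± 2.19 FPKM at 20d, against 78.9 ± 1.99 at 2d. The kinase SAPK4 (PH02Gene20163) rose to 14.3 ± 0.289 FPKM at 20d, against 6.65 ± 0.884 at 2d. Of 82 auxin genes 21 rose and 25 fell (median -0.29), and 11 of the 21 that rose averaged below 1 FPKM at 2d. The leading genes of that list are named for dormancy and repression by auxin: auxin-repressed 12.5 kDa protein (PH02Gene21281) fell to 259 ± 8.59 FPKM at 20d, against 1157 ± 64.8 at 2d and the dormancy/auxin associated protein (PH02Gene38141) to 22.5 ± 1.13 FPKM at 20d, against 212 ± 3.56 at 2d. Auxin transporter-like protein 1 (PH02Gene07716) rose to 49.7 ± 0.642 FPKM at 20d, against 13.7 ± 0.905 at 2d. Of 18 genes of gibberellin and brassinosteroid 4 rose and 4 fell (median 0.58). Of the 4 that rose, 2 averaged below 1 FPKM at 2d, and of the 4 that fell, 2 did so at 20d. Gibberellin 2-beta-dioxygenase (PH02Gene00807), which inactivates gibberellin, rose to 43.4 ± 2.40 FPKM at 20d, against 7.05 ± 0.852 at 2d. The receptor BRL1 (PH02Gene42834) rose to 17.6 ± 0.466 FPKM at 20d, against 4.59 ± 0.297 at 2d. The DELLA repressor SLN1 (PH02Gene13923) fell to 7.34 ± 0.779 FPKM at 20d, against 31.7 ± 1.43 at 2d. A gibberellin oxidase (PH02Gene36717) was not called at 53.8 ± 3.10 FPKM at 20d, against 33.4 ± 0.794 at 2d. Of 41 cytokinin genes 9 rose and 9 fell (median -0.00). Of the phosphoribohydrolases that release active cytokinin, PH02Gene20702 fell to 36.2 ± 1.29 FPKM at 20d, against 198 ± 4.52 at 2d and PH02Gene22722 rose to 41.8 ± 2.42 FPKM at 20d, against 7.06 ± 0.759 at 2d. Cis-zeatin O-glucosyltransferase (PH02Gene33257) rose to 22.6 ± 0.640 FPKM at 20d, against 6.74 ± 1.01 at 2d. Histidine kinase 3 (PH02Gene07260) was not called at 182 ± 2.85 FPKM at 20d, against 160 ± 4.73 at 2d.

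Among genes of sugar handling, the main sucrose synthase fell while many transporters rose. Of 33 genes for sucrose synthases and invertases 12 rose and 7 fell (median 0.41). Sucrose synthase PH02Gene02657 (scaffold 6, 14116947 to 14123814, minus strand), which splits sucrose for wall and energy use, had 23.4, 23.5, 21.8 and 23.8 FPKM in the 20d libraries, against 667, 660, 671 and 674 FPKM in the 2d libraries (log2 change -4.84, SE 0.03, adjusted p = 4.01e-27). Sucrose-phosphate synthase 3 (PH02Gene11187), which makes sucrose, rose to 92 ± 2.28 FPKM at 20d, against 17.3 ± 1.30 at 2d, and a vacuolar invertase (PH02Gene20078) to 41.6 ± 0.630 FPKM at 20d, against 17.4 ± 0.747 at 2d. Sugar transporters rose in 17 of 34 cases (50%, beside 16.6% of all tested genes) and fell in 4 (11.8%, beside 19.0%, median 0.99). SWEET6b (PH02Gene28963) rose to 81.9 ± 1.20 FPKM at 20d, against 19.8 ± 1.08 at 2d. ERD6-like 4 (PH02Gene27039), of a family of vacuolar exporters, rose to 84.6 ± 1.09 FPKM at 20d, against 22.6 ± 1.49 at 2d. SWEET1b (PH02Gene29130) fell to 16.6 ± 0.279 FPKM at 20d, against 63.6 ± 2.33 at 2d. SWEET4a (PH02Gene37155) was not called at 69.6 ± 0.965 FPKM at 20d, against 100 ± 5.74 at 2d. Of 56 starch genes 17 rose and 16 fell (median 0.11). Beta-amylase 1 (PH02Gene33818) rose to 102 ± 2.48 FPKM at 20d, against 18.9 ± 1.52 at 2d. The branching enzyme (PH02Gene31595) rose to 134 ± 1.62 FPKM at 20d, against 27.8 ± 1.72 at 2d. Granule-bound synthase 1b (PH02Gene37359) fell to 4.22 ± 0.481 FPKM at 20d, against 41.8 ± 1.27 at 2d. Synthase III1 (PH02Gene06030) was not called at 96.5 ± 1.22 FPKM at 20d, against 69.6 ± 1.22 at 2d.

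Glycolysis genes rose in 16 of 70 cases (22.9%, beside 16.6% of all tested genes) and fell in 18 (25.7%, beside 19.0%, median 0.30). Pyruvate kinase 1 (PH02Gene40830), the last step, rose to 184 ± 4.17 FPKM at 20d, against 28.8 ± 0.587 at 2d, and enolase 2 (PH02Gene03379), the step before, fell to 58.7 ± 1.80 FPKM at 20d, against 217 ± 5.96 at 2d. A second enolase 2 gene (PH02Gene03380) fell to 37.8 ± 1.13 FPKM at 20d, against 180 ± 19.9 at 2d. Phosphoglycerate mutase (PH02Gene03713) was not called at 148 ± 3.46 FPKM at 20d, against 205 ± 2.62 at 2d. Of 18 fermentation genes 7 fell and 2 rose (median -0.81). Pyruvate decarboxylase 2 (PH02Gene12963), which opens the path from pyruvate to ethanol, fell to 11.8 ± 0.745 FPKM at 20d, against 75.3 ± 2.21 at 2d. Alcohol dehydrogenase 1 (PH02Gene33378), which ends it, fell to 36.7 ± 1.07 FPKM at 20d, against 133 ± 1.96 at 2d. Alcohol dehydrogenase-like 2 (PH02Gene05455) was not called at 208 ± 1.93 FPKM at 20d, against 392 ± 14.9 at 2d. Dehydrogenase-like 4 (PH02Gene39803) rose to 5.09 ± 0.340 FPKM at 20d, against 2.23 ± 0.423 at 2d. Of 101 genes of the TCA cycle and respiration 9 rose and 19 fell (median -0.26). A cytochrome c oxidase subunit (PH02Gene27925) fell to 22 ± 2.86 FPKM at 20d, against 151 ± 2.89 at 2d. Flavoprotein 2 of complex I (PH02Gene08477) fell to 28.5 ± 1.30 FPKM at 20d, against 87.9 ± 3.52 at 2d. Citrate synthase of glyoxysomes (PH02Gene20676) rose to 76.4 ± 3.03 FPKM at 20d, against 27.1 ± 1.25 at 2d. The most abundant, NADP-dependent isocitrate dehydrogenase (PH02Gene17336), was not called at 525 ± 6.71 FPKM at 20d, against 753 ± 5.94 at 2d.

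Transporters of amino acids, peptides and related compounds moved in both directions. Of 46 genes for WAT1-related proteins and amino acid transporters 20 rose (43.5%) and 7 fell (median 0.82), and 8 of the 20 that rose averaged below 1 FPKM at 2d. WAT1-related protein At5g47470 (PH02Gene31810, scaffold 8, 850928 to 854443, minus strand), of a family whose first member moves auxin out of the Arabidopsis vacuole, had 277, 284, 275 and 281 FPKM in the 20d libraries, against 0.574, 0.906, 0.647 and 0.489 FPKM in the 2d libraries (log2 change 8.74, SE 0.09, adjusted p = 7.51e-13). WAT1-related At4g30420-like (PH02Gene19013) rose to 124 ± 2.33 FPKM at 20d, against 61 ± 0.822 at 2d. Amino acid transporter ANT1 (PH02Gene25052) fell to 17.7 ± 0.911 FPKM at 20d, against 60.8 ± 1.37 at 2d, and AVT6B (PH02Gene35477) was just under the size limit at 326 ± 4.47 FPKM at 20d, against 167 ± 3.56 at 2d. Of 36 nitrate and peptide transporters, a list added after values had been seen, 11 rose and 9 fell (median 0.56). NPF 8.3-like (PH02Gene12468), related to a peptide carrier of Arabidopsis, rose to 885 ± 5.57 FPKM at 20d, against 185 ± 3.10 at 2d. Oligopeptide transporter 4 (PH02Gene32670) rose to 70.5 ± 2.75 FPKM at 20d, against 24.3 ± 2.52 at 2d. The transporter At3g43790 (PH02Gene38058) fell to 7.03 ± 0.281 FPKM at 20d, against 58.5 ± 1.14 at 2d. DMP proteins, small membrane proteins of which one marks senescence in Arabidopsis, rose in 4 of 5 tested cases and fell in 0 (median 7.09, likewise an added list). Of the 4 that rose, 2 averaged below 1 FPKM at 2d. DMP2 (PH02Gene07723) had 199, 201, 224 and 206 FPKM in the 20d libraries, against 0.853, 1.38, 0.740 and 1.29 FPKM in the 2d libraries (log2 change 7.62, SE 0.10, adjusted p = 9.20e-18), a second DMP2 gene (PH02Gene26343) rose to 21.1 ± 1.91 FPKM at 20d, against 4.14 ± 0.856 at 2d, and DMP4-like (PH02Gene01370) was at 10.0 ± 0.863 FPKM at 20d and had 2 fragments over the 2d libraries. Of 12 aquaporins 5 fell and 2 rose (median -0.40). TIP1-1 (PH02Gene03621), the water channel of the vacuole, fell to 41.4 ± 1.95 FPKM at 20d, against 249 ± 9.45 at 2d. PIP2-6 (PH02Gene26386) fell to 27.4 ± 0.912 FPKM at 20d, against 137 ± 9.15 at 2d. A PIP-type gene (PH02Gene23321) rose to 14.1 ± 0.550 FPKM at 20d, against 2.50 ± 0.313 at 2d. PIP1-1 (PH02Gene00514) was not called at 209 ± 10.6 FPKM at 20d, against 278 ± 9.80 at 2d.

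A few genes were present at one time and had no count at the other. At 20d 95 genes averaged 1 FPKM or more, with a highest mean of 24.6 FPKM, and had no count in any 2d library. A further 73 genes had no count in any 20d library and averaged at least 1 FPKM at 2d, with a highest mean of 147 FPKM. Of the 95, 9 had a mean of at least 1 at 6d and 13 at 0d. Of the 73, 34 did at 6d and 51 at 0d. Gene PH02Gene24299 (scaffold 21, 100100086 to 100101067, minus strand), a strigolactone esterase D14 named for the strigolactone receptor that restrains branching, had 19.3, 19.2, 17.6 and 18.3 FPKM in the 20d libraries and 0 in all 2d libraries, at least 158-fold higher. It was at 53.4 ± 1.49 FPKM at 0d and 0 FPKM at 6d. An adjacent gene of the same name on the same strand, PH02Gene24300, moved the other way, with 14.2, 15.6, 16 and 16.4 FPKM in the 20d libraries, against 108, 102, 98.6 and 109 FPKM in the 2d libraries (log2 change -2.73, SE 0.06, adjusted p = 1.75e-19). The pair may share reads, and how those were assigned is not given in the sources used here. MYB108-like (PH02Gene29742) was at 11.4, 12.6, 11.6 and 12.4 FPKM in the 20d libraries and MYB2-like (PH02Gene29745) at 4.49, 4.50, 2.67 and 3.83 FPKM, both with no count at 2d (at least 154-fold and 39.9-fold higher). The MIZU-KUSSEI 1 gene (PH02Gene01296), named for a protein of water sensing in Arabidopsis roots, had no count at 20d, against 7.98, 10.5, 10.1 and 11.8 FPKM in the 2d libraries (at least 127-fold lower). A receptor kinase gene of the L-type lectin family (PH02Gene37940) rose to 13.5 ± 0.391 FPKM at 20d, against 0.0309 ± 0.0383 at 2d.

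Some of these genes were uneven between pools. The gene for alpha subunit 5 of complex I (PH02Gene19688) had no count at 20d and 35, 12, 44.1 and 21.4 FPKM in the 2d libraries (log2 change -12.69, SE 1.49, adjusted p = 0.00376). It had 0, 0, 0 and 38.9 FPKM in the 0d libraries and 23.1, 0, 0 and 49.3 FPKM in the 6d libraries. Libraries at 0 were thus not particular to 20d. A cysteine synthase gene (PH02Gene51440) had no count at 20d and 1.61, 55.7, 1.35 and 2.37 FPKM in the 2d libraries, where 1 pool held nearly all of it, and was not called (log2 change -12.12, SE 4.65, adjusted p = 0.0892). Without 2d replicate 2 it was called, with a log2 change of -9.05.

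For most called genes the 6d mean lay between the means of the 2 states. Of the 3922 genes higher at 20d, the 6d mean lay between the 2d and 20d means for 3174 (80.9%), and of the 4495 lower genes for 3705 (82.4%), beside 51.7% of all tested genes. Called genes were chosen for a wide gap between the 2d and 20d means, so a 6d mean falls inside it more readily. Many of the tested genes have little gap, so the contrast with 51.7% follows at least in part from the choice. On the scale log2(FPKM + 0.1) the 6d mean was nearer to 2d than to 20d for 62.1% of the higher and 73.8% of the lower genes. The 0d mean lay between for 51.7% of the higher and 39% of the lower genes, and for 53.6% of the lower genes it lay beyond the 2d mean, on the side away from 20d. Thionins were among the exceptions: their median level, relative to 2d, was -1.54 at 0d, 1.31 at 6d and -8.04 at 20d on that scale. Laccases and xyloglucan endotransglucosylases were at 0.88 and 1.05 at 0d, -0.05 and 0.19 at 6d, and 3.29 and 3.32 at 20d. Of these tested genes 9 of 12 laccases and 4 of 8 xyloglucan endotransglucosylases averaged below 1 FPKM at 2d. They passed the filter through 20d, so the high 20d medians were partly fixed in advance. Summed over all genes listed, laccases were at 33, 10.3, 21.6 and 83.4 FPKM at 0d, 2d, 6d and 20d. Xyloglucan endotransglucosylases were at 150, 22.4, 31.5 and 108 FPKM, highest at 0d. Ribosomal proteins of the small subunit were at 0.11 at 0d, -0.59 at 6d and -2.13 at 20d.

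**Figure D4:**
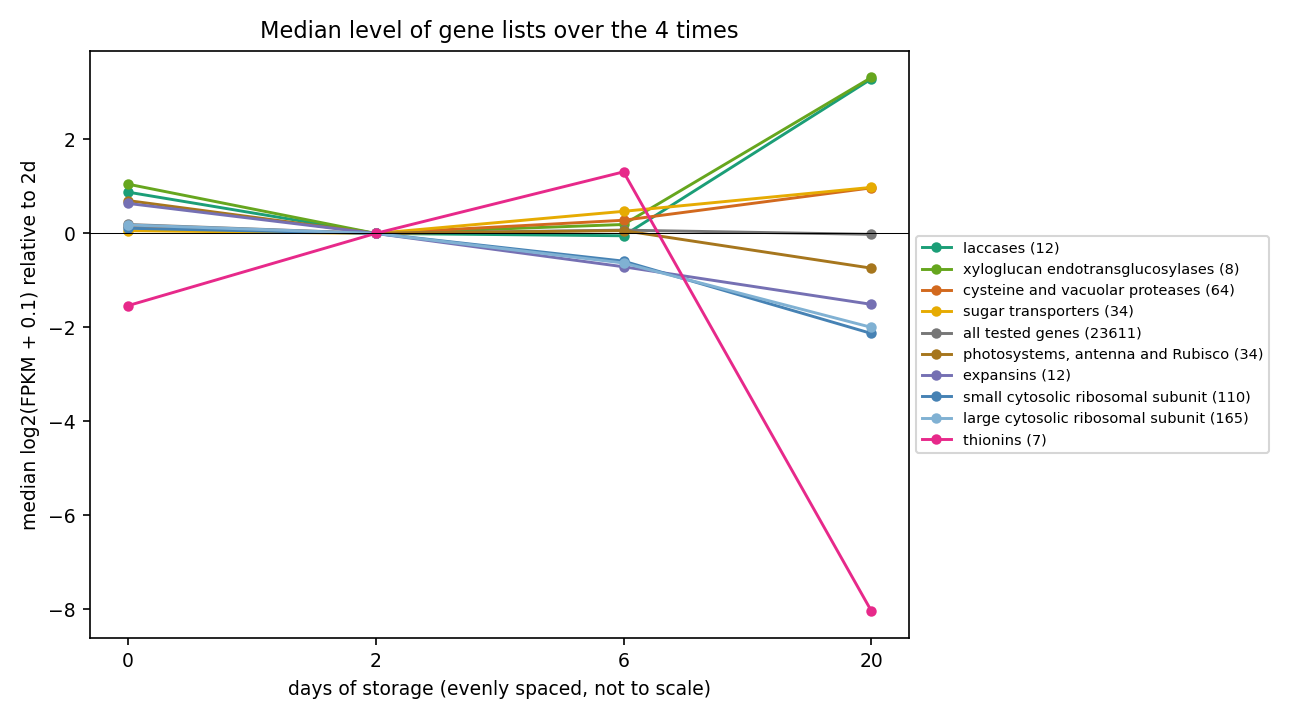
Median level of 9 gene lists and of all tested genes on the scale log2(FPKM + 0.1), set to 0 at 2d, over 0, 2, 6 and 20 days of storage (evenly spaced on the horizontal axis), with the number of tested genes in brackets. Thionins are above their 2d level at 6d and 8.04 below it at 20d, ribosomal proteins step down at 6d and again at 20d, and laccases and xyloglucan endotransglucosylases are near their 2d level at 6d and above 3 at 20d. Only tested genes are drawn, and 9 of 12 laccases and 4 of 8 xyloglucan endotransglucosylases passed the filter through their 20d level.

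The share of called genes depended on level and on gene length. With the genes split into 5 equal bins by mean FPKM, 21.7% were higher and 25.7% lower in the lowest bin, and 15.2% and 16.5% in the highest. Split likewise by length in the genome, 25.7% were higher and 23.1% lower among the shortest genes, of 156 to 2355 bases, and 11.6% and 15.8% among the longest. Without the ribosomal proteins of the cytosol the shares in the bin of the shortest genes were 26.3% higher and 21.5% lower. Neighbours on a scaffold with the same description, at most 100000 bases apart, gave 290 pairs with both genes tested. In 80 pairs both were called, 42 with both higher, 32 with both lower and 6 with opposite changes, the D14 pair among them. In 79 pairs 1 gene was called and in 131 neither was, beside 35.6% called of all tested genes. Neighbours of the same description may share reads.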

How the data were processed

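Total RNA from pools of bamboo shoot segments was sequenced on an Illumina Novaseq, per the labels' protocols. The authors deposited 1 table of 50936 genes with an FPKM value and an estimated count for each library. Per the file headers the FPKM columns hold FPKM, scaled by gene length and by library size, with 0 written as 0.0001, and the deposited estimated counts are whole numbers without normalization. Multiples of 4 make up 35.2% of counts from 1 to 19, where 21.1% would be even, so 1 fragment seems to add about 4 counts. The aligner, counter, genome build, strandedness and treatment of reads shared by copies were not given in the sources used here. Coordinates are those of the deposited table, and gene names and roles follow its descriptions, which 49347 genes have.

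The counts of the 8 libraries were fitted with edgeR 4.0.16 in R 4.3.3 (TMM factors, robust quasi-likelihood test), for genes that averaged 1 FPKM or more, with Benjamini-Hochberg adjustment over all 23611 tested genes. The standard error is that of the fitted log2 change. Groups were taken from the labels. Nothing in the labels says whether the 4 pools of a time came from separate plots. Alternatives used DESeq2 1.42.0, limma 3.58.1, other scalings, filters, limits and left-out libraries. Folds against a group without counts use a floor of 3 fragments (12 counts) over the group, and intervals and floors cover counting error only. In simulated counts for this comparison, over 23611 genes, 94 of 100 genes with a log2 change of 2 and 48 of 100 with a log2 change of 1 were called, and 3 of 23411 unchanged genes. A log2 change of 1 is the call limit itself, so many estimates had to fall below it, and 91 of those 100 passed adjusted p. Far fewer genes changed in the simulation than were called in the data, so these numbers are not the error rates of the real comparison.

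The comparison, the 72 gene lists, of which 6 were added after values had been seen, and the tests were chosen with earlier results of these data known. Lists were built from words in the descriptions and received no test. From them 392 stray entries, picked by their description, were taken out, which moved some counts. Dehydrins and LEA proteins went from 7 of 18 higher to 4 of 11, and xylan genes from 28 of 94 to 17 of 60. Genes were named by rule: the 10 largest rises and falls and the 6 largest differences of FPKM in each direction among called genes that averaged 5 FPKM or more, the most abundant member of a list and its most abundant called members in each direction, and the most abundant genes found at one time only. A few others, named beside a neighbour, a copy or a role, were chosen after their values were seen, and not every gene the rule gives is printed.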

Additional observations from a re-analysis of the deposited data

Results flagged for a closer look

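In 35 of 494 groups of 4 libraries (7.09%) a single library lay far from the other 3, with a gap to its nearest neighbour that passed Dixon's 95% limit, where chance gives about 1 in 20. The values are FPKM. In the 20d libraries the values set apart were 47 for PH02Gene00807 in replicate 1 (others 41.9 to 42.4), 180 for PH02Gene02916 in replicate 1 (others 176 to 176), 4.96 for PH02Gene05570 in replicate 4 (others 5.34 to 5.42) and 132 for PH02Gene07293 in replicate 1 (others 140 to 141). Further values at 20d were 164 for PH02Gene11487 in replicate 2 (others 176 to 179), 8.5 for PH02Gene13923 in replicate 1 (others 6.90 to 7.01), 68.3 for PH02Gene14655 in replicate 2 (others 59.3 to 59.6) and 0.0546 for PH02Gene14795 in replicate 4 (others 0 to 0). Others at 20d were 16.2 for PH02Gene18114 in replicate 4 (others 17.2 to 17.2), 81.5 for PH02Gene19014 in replicate 3 (others 77.4 to 77.9), 14.8 for PH02Gene20163 in replicate 3 (others 14.2 to 14.2) and 0.316 for PH02Gene23801 in replicate 2 (others 0.562 to 0.597). Also apart at 20d were 451 for PH02Gene25200 in replicate 1 (others 476 to 479), 155 for PH02Gene28163 in replicate 1 (others 161 to 162), 160 for PH02Gene35698 in replicate 4 (others 142 to 143) and 180 for PH02Gene36226 in replicate 4 (others 183 to 184). Set apart too at 20d were 142 for PH02Gene36977 in replicate 4 (others 173 to 174) and 22.8 for PH02Gene50171 in replicate 2 (others 24.6 to 24.9).

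In the 2d libraries the values set apart were 0.114 for PH02Gene01370 in replicate 4 (others 0 to 0), 20.6 for PH02Gene03593 in replicate 4 (others 18.4 to 18.7), 11.5 for PH02Gene05945 in replicate 1 (others 11.8 to 11.8) and 5.56 for PH02Gene06660 in replicate 4 (others 6.91 to 7.19). Further values at 2d were 15.4 for PH02Gene11187 in replicate 2 (others 17.8 to 18.2), 0.198 for PH02Gene14642 in replicate 3 (others 0 to 0.00587), 12 for PH02Gene16957 in replicate 4 (others 7.27 to 7.76) and 232 for PH02Gene21674 in replicate 4 (others 241 to 242). Others at 2d were 10.4 for PH02Gene32321 in replicate 2 (others 9.51 to 9.60), 24.5 for PH02Gene38192 in replicate 2 (others 23.7 to 23.8), 141 for PH02Gene38917 in replicate 1 (others 131 to 132) and 103 for PH02Gene40863 in replicate 3 (others 104 to 104). Also apart at 2d were 119 for PH02Gene41094 in replicate 3 (others 123 to 124), 9.40 for PH02Gene41358 in replicate 3 (others 10.4 to 10.6), 0.114 for PH02Gene41830 in replicate 4 (others 0 to 0) and 55.7 for PH02Gene51440 in replicate 2 (others 1.35 to 2.37). The total count of 2d replicate 3 was 62.4 M (mega), against 51.7 to 53.4 M in the other 2d libraries. In the cysteine synthase gene PH02Gene51440 the 1 library holds nearly all of the level at 2d.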

How the results depend on the processing

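Called genes numbered 8380 to 8457 when each library, or each replicate number at both times, was left out, with 3896 to 3939 higher and 4472 to 4532 lower at 20d, against 8417, 3922 and 4495 in all libraries. Another scaling, DESeq2, limma on log2(FPKM + 0.1), counts divided by 4 and a fit over all 16 libraries gave 8322 to 8447 calls. Fewer calls came from the edgeR test against a log2 change of 1 (glmTreat), 6943 (3223 higher, 3720 lower), which kept 82.5% of the main calls. With limma on log2(FPKM + 1) there were 6719 (3115 higher, 3604 lower), which kept 79.4%. Adjusted p alone gave 19518 calls (9740 higher, 9778 lower). A log2 change of at least 2 gave 3251 (1495 higher, 1756 lower), limma on log2(FPKM + 5) gave 3279 (1527 higher, 1752 lower), a mean FPKM of at least 5 gave 4728 (2168 higher, 2560 lower) and no filter gave 12808 (5974 higher, 6834 lower). These follow from the limit, the pseudocount and the number of genes tested. In none of these settings was a called gene called in the opposite direction. Replicate numbers did not pair the samples. Over genes that averaged 10 FPKM or more, the deviations of same-numbered libraries from the mean of their time correlated at 0.111, -0.093, -0.072 and -0.031. The replicate block gave 8435 calls (3932 higher, 4503 lower).

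Of the 248 named genes 0 changed sign, and 24 crossed the call limit in a setting other than limma on log2(FPKM + 5). The median of 14 lists changed sign in some setting. With no filter it was -1.02 for xyloglucan endotransglucosylases (3.45 with the filter), -0.13 for class III peroxidases, -0.01 for flavonoid enzymes, -0.36 for cellulose synthase-like genes, 0.28 for raffinose genes and 0.35 for glutathione S-transferases. The cause was not tested. Genes of few fragments limit what can be seen: a gene with no count at one time is known only by its bound.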

Other observations

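Gene lists with no part in the comparisons above showed changes in both directions. Of 28 tested trehalose genes, whose product trehalose 6-phosphate signals sugar status, 11 fell, of which 4 averaged below 1 FPKM at 20d, and 3 rose (median log2 change -0.44, beside -0.004 for all tested genes). The most abundant, synthase 8 (PH02Gene21236), was not called at 138 ± 2.45 FPKM at 20d, against 254 ± 5.18 at 2d. Synthase 6 (PH02Gene48823) fell to 91.3 ± 1.48 FPKM at 20d, against 188 ± 1.59 at 2d, synthase 10 (PH02Gene23984) to 33.1 ± 0.764 FPKM at 20d, against 77 ± 1.43 at 2d. Synthase 9 (PH02Gene35385) rose to 24.2 ± 0.340 FPKM at 20d, against 5.51 ± 0.474 at 2d. Of 44 tubulin and actin genes 9 fell and 8 rose (median -0.01), and 5 of the 9 that fell averaged below 1 FPKM at 20d. Tubulin alpha-4 (PH02Gene46714) fell to 142 ± 3.43 FPKM at 20d, against 297 ± 6.42 at 2d. Tubulin alpha-1 (PH02Gene12444) fell to 58.7 ± 2.34 FPKM at 20d, against 231 ± 3.90 at 2d. Actin (PH02Gene38192) rose to 70.7 ± 1.41 FPKM at 20d, against 24 ± 0.397 at 2d. Actin-depolymerizing factor 4 (PH02Gene06080) was not called at 420 ± 6.90 FPKM at 20d, against 433 ± 16.5 at 2d. Of 93 DnaJ proteins and chaperonins 18 fell and 8 rose (median -0.25). Subunits beta (PH02Gene10457) and alpha (PH02Gene49762) of T-complex protein 1, which folds tubulin and actin, fell to 21 ± 0.606 FPKM at 20d, against 59.6 ± 1.13 at 2d, and to 23.1 ± 0.911 FPKM at 20d, against 56.1 ± 1.66 at 2d. Chloroplast dnaJ C76 (PH02Gene24868) rose to 92.2 ± 0.963 FPKM at 20d, against 11.8 ± 0.949 at 2d. The most abundant dnaJ homolog (PH02Gene16891) was not called at 514 ± 2.79 FPKM at 20d, against 645 ± 17.2 at 2d.

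Of 41 genes of the clock and of photoreceptors 7 fell and 3 rose (median -0.11). Phytochrome A (PH02Gene25126) fell to 18.2 ± 0.414 FPKM at 20d, against 49.9 ± 0.851 at 2d. Phytochrome C (PH02Gene30815) rose to 52.7 ± 1.95 FPKM at 20d, against 24.2 ± 0.910 at 2d. XAP5 CIRCADIAN TIMEKEEPER (PH02Gene05121) fell to 18.5 ± 0.981 FPKM at 20d, against 43.8 ± 0.540 at 2d. LNK1 (PH02Gene34438) was not called at 166 ± 2.47 FPKM at 20d, against 174 ± 2.52 at 2d. Of 23 genes of chlorophyll synthesis 5 rose and 3 fell (median -0.10). Magnesium chelatase ChlH (PH02Gene25454) fell to 3.12 ± 0.135 FPKM at 20d, against 12.5 ± 0.283 at 2d. Porphobilinogen deaminase (PH02Gene30124) rose to 25.8 ± 1.39 FPKM at 20d, against 11 ± 1.47 at 2d. Of 95 bZIP and HD-Zip factors 22 rose and 22 fell (median 0.36). Of the 22 that rose, 3 averaged below 1 FPKM at 2d, and of the 22 that fell, 9 did so at 20d. HOX22 (PH02Gene35500) rose to 95.3 ± 5.62 FPKM at 20d, against 6.77 ± 0.516 at 2d. The most abundant bZIP gene (PH02Gene25223) fell to 132 ± 4.53 FPKM at 20d, against 282 ± 19.2 at 2d. Of 55 P450 genes 16 rose and 15 fell (median 0.20), of 53 glycosyltransferases 13 rose and 16 fell (median -0.03), and of 8 arabinogalactan and fasciclin genes 1 rose and 2 fell (median -0.81). Among the P450 genes 11 of the 16 that rose averaged below 1 FPKM at 2d and 10 of the 15 that fell did so at 20d, and among the glycosyltransferases 6 of the 13 and 10 of the 16. E3 ubiquitin ligases rose in 95 of 516 cases (18.4%, beside 16.6% of all tested genes) and fell in 66 (12.8%, beside 19.0%, median 0.06). BIG BROTHER-related (PH02Gene33588) rose to 290 ± 6.02 FPKM at 20d, against 38.1 ± 2.01 at 2d. Receptor-like kinases rose in 65 of 284 cases (22.9%) and fell in 40 (14.1%, median 0.20), and 28 of the 65 that rose averaged below 1 FPKM at 2d. A G-type lectin kinase (PH02Gene19914) rose to 115 ± 1.42 FPKM at 20d, against 38 ± 1.46 at 2d. Markers of inflorescence and pollen summed to 99.7 to 106 FPKM at 20d and 150 to 157 FPKM at 2d, and those of xylem to 1.59 to 2.29 FPKM at 20d and 2.18 to 2.73 FPKM at 2d. Of these markers 12 of 21 and 1 of 7 were tested.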
